A study of Mus musculus with 8 samples.

Results

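Smooth muscle contractile genes are described here in cultured mouse satellite cells, the stem cells of skeletal muscle, with and without added Hoxa9. The set holds 10 genes, namely Acta2, Actg2, Tagln, Cnn1, Myh11, Mylk, Pln, Cald1, Smtn and Myocd. They were found as the non-control probes that carry one of these gene names, which gave 13 probes of 55681. All 13 probes and all 10 genes passed the filter on dim probes, among 27005 genes measured. The C57BL/6J donors were 3 to 4 months old, and sorted hindlimb cells received a lentivirus that integrates into the genome. The control virus carried eGFP and the other carried Hoxa9 with eGFP, and RNA was taken from cells sorted as eGFP-positive 5 days after transduction. Each group had 4 samples from experiments numbered 1 to 4, each on its own 1-colour Agilent array. The labels name neither the promoter of the inserted cDNA nor the animals behind each sample. A p-value here therefore covers the spread between samples, which may be technical.

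Smooth muscle cells contract when calcium and calmodulin activate myosin light chain kinase, which phosphorylates the regulatory light chain of smooth muscle myosin. Actin filaments of these cells carry calponin, caldesmon and transgelin in place of the troponin of striated muscle. Many of their genes are switched on by serum response factor (SRF) at CArG boxes together with myocardin or the related factors MRTF-A and MRTF-B, and cultured myoblasts are known to express some of them before they fuse.

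The arrays were alike in coverage, with 69.6% to 77.5% of non-control spots well above background and no saturated spot. Their number limits the precision of every value. A level is log2 of the background-subtracted signal minus the array's 75th percentile, so levels of different probes compare signal and not amounts of RNA. A difference is Hoxa9 minus eGFP in these log2 units. The brighter of the Hoxa9 probes differed by 5.97 (SE 0.24) and the dimmer one by -1.75 (SE 0.15). The arrays lay on 3 slides, each with both groups. As markers of the labelled cell type, Pax7 was at 2.53 ± 0.28 (SD, n = 4) in the eGFP arrays and 1.22 ± 0.31 in the Hoxa9 arrays, and Myod1 at 4.79 ± 0.30 and 4.56 ± 0.21.

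Of the 10 smooth muscle genes, 5 were higher with Hoxa9, 1 was lower and 4 were not called (limma, Benjamini-Hochberg adjusted p under 0.05 over all genes). The higher ones were Actg2, Cnn1, Mylk, Pln and Myocd, and the lower one was Acta2. Pln passed the filter only through the Hoxa9 arrays, and Myocd was above background on 2 of the 4 eGFP arrays. Of the higher genes, Actg2, Cnn1 and Mylk were above background on all 8 arrays. Over all genes 15.2% were called, 7.71% higher and 7.45% lower. The median difference of the 10 genes was 1.58, against -0.08 over all genes. It is the midpoint of Myh11 (1.20) and Actg2 (1.96), so the lower Pln value given below, 6.12-fold, could not change it. With normexp background correction the median of the 10 was 0.50, and over the 7 genes above background on all 8 arrays it was 0.02. The eGFP and Hoxa9 arrays did not overlap in the same 6 genes, 5 with Hoxa9 above and 1 with Hoxa9 below. Over all genes 23.5% did not overlap, 10.9% with Hoxa9 above and 12.6% with Hoxa9 below. By probe, 5 of 13 were called higher and 1 lower, against 13.4% of all probes called, 6.7% higher and 6.65% lower. With the experiment number as a block, 6 genes were called higher and 1 lower, against 16.2% of all genes called, 8.36% higher and 7.86% lower. In bulk samples of this kind, fewer cells that express a gene and less RNA per cell cannot be told apart.

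**Figure D1:**
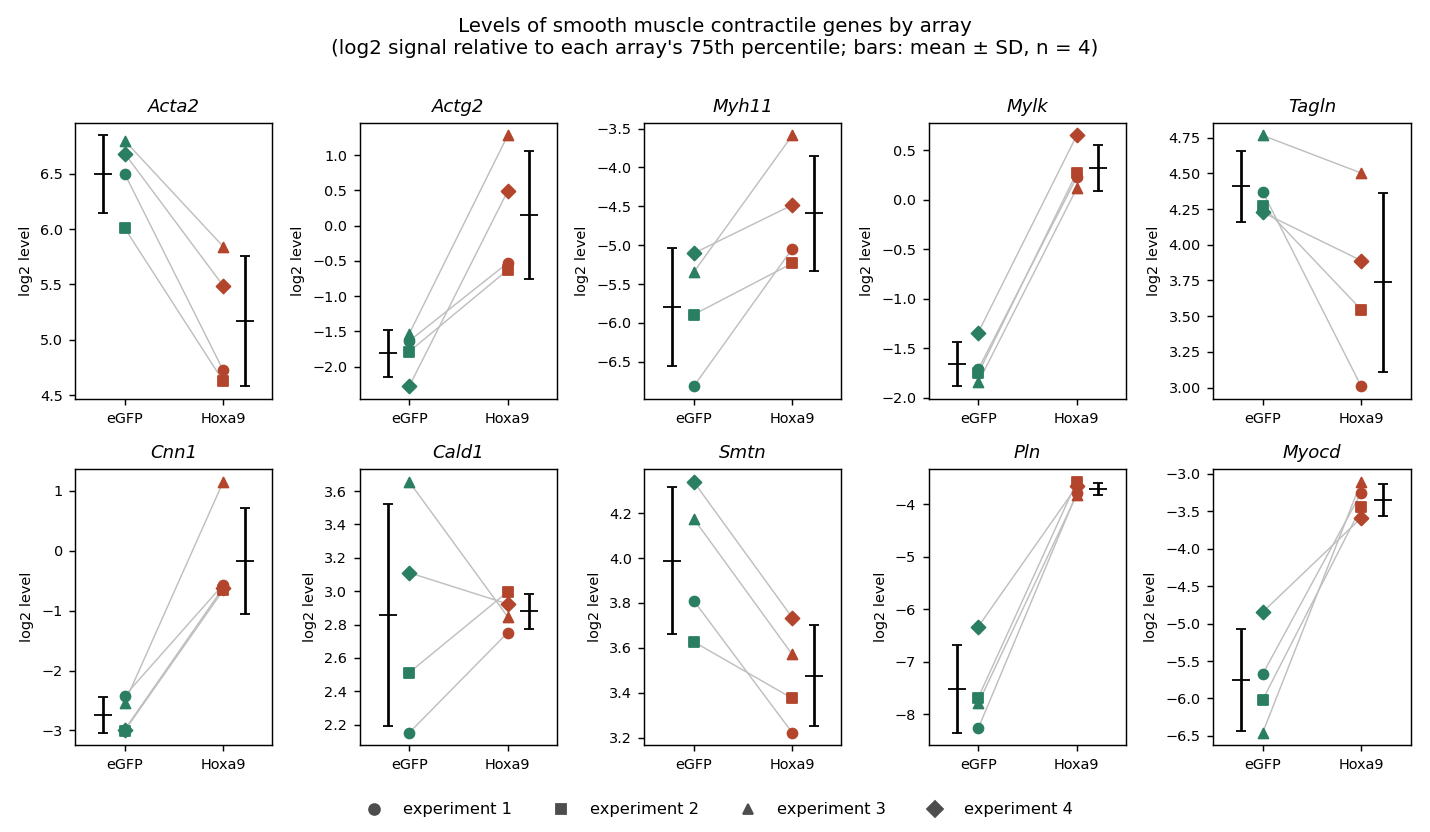
Level of each of the 10 genes on every array, as log2 signal relative to the array's 75th percentile, with a vertical scale of its own for each gene. Points are arrays and horizontal bars are group means with SD (n = 4). The groups stand apart for Acta2, where Hoxa9 is below, and for Actg2, Cnn1, Mylk, Pln and Myocd, where Hoxa9 is above, and they overlap for the other 4 genes.

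The pair of smooth muscle actins moved in opposite directions: Acta2 fell 2.51-fold and Actg2 rose 3.90-fold. Acta2 encodes vascular smooth muscle α-actin and Actg2 the γ-actin of visceral smooth muscle. Their probes read different sequence, shown here as the first 30 bases of each 60-base probe because the contrast between these genes rests on it. The Acta2 probe lies at chr19:34316060-34316119 and the Actg2 probe at chr6:83462904-83462963 (mm9, both minus strand). The gene features at these mm9 positions were not analysed here.
Acta2 probe: gttttgtggatcagcgcctccagttccttt
Actg2 probe: tctggggatccccacaagactgctgtcacc
The longest run of bases that the full probes share is 6.

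Acta2 levels in replicates 1 to 4 were 6.50, 6.01, 6.80 and 6.68 with eGFP alone and 4.72, 4.63, 5.84 and 5.49 with Hoxa9, and arrays are listed in this order throughout. All Hoxa9 arrays lay below all eGFP arrays, and replicate 3 was the highest array of each group. The means were 6.50 ± 0.35 and 5.17 ± 0.59 (SD, n = 4), a difference of -1.33 (SE 0.31, limma adjusted p = 0.02332). Acta2 is the only one of these genes with 10 spots on the array, and their spread within an array was 0.0876 to 0.204 (SD of log2). Unlogged spot signals ran from 40800 to 68100 in the eGFP arrays and from 11400 to 40900 in the Hoxa9 arrays. Acta2 was lower in every same-numbered experiment, by -1.78, -1.38, -0.96 and -1.20. The call did not survive every setting. The adjusted p was 0.057 without eGFP replicate 1, 0.06654 without eGFP replicate 3, 0.06222 without eGFP replicate 4, 0.06553 without Hoxa9 replicate 1 and 0.05786 with quantile normalization (limma).

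Actg2 levels were -1.64, -1.79, -1.54 and -2.28 in the eGFP arrays and -0.53, -0.63, 1.28 and 0.49 in the Hoxa9 arrays. No Hoxa9 array overlapped the eGFP arrays, and Hoxa9 replicates 3 and 4 were the highest. Actg2 rose by 1.96 (SE 0.42, limma adjusted p = 0.0161), from -1.81 ± 0.33 to 0.15 ± 0.90 (SD, n = 4), and was called in all 17 alternative settings over genes, though over probes its call was lost when any of 3 arrays was left out. The experiments gave 1.11, 1.16, 2.81 and 2.77. The Actg2 difference lay 3.29 above the Acta2 difference, a description chosen after the values were seen, for which no p is given. Of the other actins, the skeletal Acta1 differed by 0.49 (SE 0.28), the cardiac Actc1 by 0.39, and the cytoplasmic Actb and Actg1 by 0.01 and 0.27, none of them called.

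The Acta2 start is shown because it alone, among the 6 genes of the set with a RefSeq window, held CArG-like boxes upstream. The window is the 250 bases before the annotated start at chr19:34255374-34255623 (RefSeq, GRCm38.p6, minus strand), with the boxes in capitals.
Acta2 upstream: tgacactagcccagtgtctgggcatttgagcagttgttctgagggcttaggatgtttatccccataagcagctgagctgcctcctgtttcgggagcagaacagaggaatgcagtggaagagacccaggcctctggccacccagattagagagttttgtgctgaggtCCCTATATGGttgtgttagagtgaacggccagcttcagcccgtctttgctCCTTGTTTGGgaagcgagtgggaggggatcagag
The boxes begin 84 and 34 bases before the start. A CArG-like box was taken as the CArG motif with at most 1 G or C in its core, on either strand, and 8.59% of 32851 windows of this length held one. The CArG box with no such exception was in 0 of the 7 windows of these genes (Cald1 has 2) and in 1.47% of all windows. Tagln, Actg2, Myh11 and Myocd were not covered.

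Myosin and its kinase gave a dim Myh11 and a clear rise of Mylk. Mylk, which encodes myosin light chain kinase, rose 3.94-fold by its brighter probe, and Myh11, the heavy chain that defines mature smooth muscle, was not called. Mylk has 2 probes, both shown by their first 30 bases because they carry different accessions in the files and gave different values. The RefSeq probe (NM_139300) is at chr16:35001266-35001325 and the other, of the cDNA clone AK044527, at chr16:34953958-34954017 (mm9, plus strand).
Mylk RefSeq probe: aggacatttatcatgtttcttccatcctga
Mylk clone probe: gcaagagaattgcaagatcaaggccagccc
The longest run of bases that the full probes share is 5.

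The RefSeq probe of Mylk read -1.71, -1.75, -1.84 and -1.34 in the eGFP arrays and 0.23, 0.27, 0.12 and 0.65 in the Hoxa9 arrays. The groups were far apart and replicate 4 was the highest in both. The means were -1.66 ± 0.22 and 0.32 ± 0.23 (SD, n = 4), and the difference of 1.98 (SE 0.18, limma adjusted p = 2.707e-04) was nearly the same in the 4 experiments, at 1.94, 2.03, 1.96 and 1.99. The clone probe read -2.71, -2.32, -2.40 and -2.13 in the eGFP arrays and -2.21, -1.31, -2.28 and -1.65 in the Hoxa9 arrays. Its groups overlapped, and its difference of 0.53 (SE 0.25) was not called (limma adjusted p = 0.2318 over probes). The RefSeq probe's difference lay 1.45 above that of the clone probe, also a description chosen after the values were seen, for which no p is given. With the mean of its probes Mylk differed by 1.25 and was still called.

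Myh11 (probe at chr16:14202190-14202249, mm9) was well above background on 2 of 4 eGFP arrays and on all 4 Hoxa9 arrays. Its levels were -6.82, -5.89, -5.35 and -5.10 in the eGFP arrays and -5.05, -5.23, -3.59 and -4.48 in the Hoxa9 arrays. The groups overlapped through eGFP replicate 4, which lay above Hoxa9 replicate 2. The difference was 1.20 (SE 0.46, limma adjusted p = 0.1327), positive in every experiment at 1.77, 0.66, 1.76 and 0.62. With the experiment as a block the same difference had an SE of 0.27 and was called (limma adjusted p = 0.04409). With normexp background correction it was 0.31.

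Among the proteins that decorate the actin filament, Cnn1 rose 5.92-fold while Tagln, Cald1 and Smtn were not called. Cnn1 encodes calponin 1, which binds actin and inhibits the myosin ATPase, and Tagln encodes transgelin (SM22α), an actin cross-linker. Cald1 encodes caldesmon, an actin- and myosin-binding inhibitor, and Smtn encodes smoothelin, a stress fibre protein of contractile smooth muscle. The probes lie at chr9:21913058-21913117 for Cnn1, chr9:45738097-45738156 for Tagln, chr6:34723839-34723898 for Cald1 and chr11:3417530-3417589 for Smtn (mm9).

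Cnn1 levels were -2.42, -3.00, -2.54 and -2.99 in the eGFP arrays and -0.56, -0.66, 1.15 and -0.62 in the Hoxa9 arrays. Every Hoxa9 array was above every eGFP array, and Hoxa9 replicate 3 stood above the other Hoxa9 arrays. The means were -2.74 ± 0.30 and -0.17 ± 0.88 (SD, n = 4), a difference of 2.57 (SE 0.41, limma adjusted p = 0.004099). Without Hoxa9 replicate 3 it was 2.12, and Cnn1 was called in all 17 alternatives. The experiments gave 1.86, 2.35, 3.69 and 2.37.

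Tagln followed Acta2 in sign but not in call. Its levels were 4.37, 4.27, 4.77 and 4.23 in the eGFP arrays and 3.01, 3.55, 4.50 and 3.89 in the Hoxa9 arrays. Hoxa9 replicate 3 lay within the range of the eGFP arrays and the other 3 Hoxa9 arrays below it. The difference was -0.67 (SE 0.31, limma adjusted p = 0.2036), with experiment values of -1.36, -0.73, -0.26 and -0.34. No alternative called it, and the lowest adjusted p was 0.05783, by limma.

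Cald1 levels were 2.15, 2.51, 3.66 and 3.11 in the eGFP arrays and 2.75, 3.00, 2.85 and 2.92 in the Hoxa9 arrays. The Hoxa9 arrays fell inside the wider eGFP range. Cald1 differed by 0.02 (SE 0.31, limma adjusted p = 0.971), with experiment values of 0.60, 0.48, -0.81 and -0.19, and its other probe by 0.00 (SE 0.23). Its sign changed between settings.

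Smtn levels by the brighter probe were 3.81, 3.63, 4.18 and 4.34 in the eGFP arrays and 3.22, 3.38, 3.57 and 3.74 in the Hoxa9 arrays. The groups overlapped through Hoxa9 replicate 4 and eGFP replicate 2. The difference was -0.51 (SE 0.20, limma adjusted p = 0.1432) and negative in each experiment, at -0.59, -0.25, -0.60 and -0.60. The other Smtn probe, at chr11:3420834-3420893 (mm9, minus strand), read 1.76, 1.50, 1.96 and 1.71 in the eGFP arrays and 1.13, 0.76, 1.42 and 1.25 in the Hoxa9 arrays, with no overlap. That probe differed by -0.60 (SE 0.19, limma adjusted p = 0.07422 over probes). It was called with the experiment as a block (limma adjusted p = 0.04404) and with an intensity trend and robust prior (0.04246).

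Myocardin and phospholamban were near or under background in the control arrays and measured on all 4 Hoxa9 arrays. Myocd encodes myocardin, the SRF coactivator of cardiac and smooth muscle, and Pln encodes phospholamban, a small inhibitor of the calcium pump of the sarcoplasmic reticulum. The probes are at chr11:64991930-64991989 for Myocd and chr10:53064944-53065003 for Pln (mm9).

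Myocd levels were -5.67, -6.02, -6.46 and -4.85 in the eGFP arrays, 2 of them well above background, and -3.25, -3.45, -3.11 and -3.59 in the Hoxa9 arrays. The groups did not overlap and the Hoxa9 arrays were close together. The means were -5.75 ± 0.68 and -3.35 ± 0.21 (SD, n = 4), a rise of 2.40 (SE 0.32, limma adjusted p = 0.001775). The experiments gave 2.42, 2.57, 3.35 and 1.26. The size depended on the background correction: with normexp the difference was 0.69, still called.

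In the eGFP arrays Pln was never well above background, where its probe read -8.27, -7.69, -7.79 and -6.33, and it passed the filter through the Hoxa9 arrays alone, at -3.80, -3.58, -3.83 and -3.66. The Hoxa9 arrays lay above all eGFP arrays. The Hoxa9 level was 6.12-fold higher in the main setting when the dim eGFP readings were raised to a floor. Each eGFP array then counted at the Pln signal or at the lowest signal that passed as above background, whichever was higher. The limma call rests on eGFP readings below background, in a gene that had to differ to pass the filter, and its p is not given. The measured means were -7.52 ± 0.83 and -3.72 ± 0.12 (SD, n = 4), and the experiment differences, which rest on those dim readings, were 4.47, 4.11, 3.97 and 2.67. With normexp the fitted difference was 0.76, a smaller rise than 6.12-fold, so that fold is not a lower limit over settings.

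The windows upstream of Mylk, Cnn1 and Pln are shown as the starts of higher genes that RefSeq covers, each 250 bases on the plus strand of GRCm38.p6. They lie at chr16:34784700-34784949 for Mylk, chr9:22099003-22099252 for Cnn1 and chr10:53337436-53337685 for Pln.
Mylk upstream: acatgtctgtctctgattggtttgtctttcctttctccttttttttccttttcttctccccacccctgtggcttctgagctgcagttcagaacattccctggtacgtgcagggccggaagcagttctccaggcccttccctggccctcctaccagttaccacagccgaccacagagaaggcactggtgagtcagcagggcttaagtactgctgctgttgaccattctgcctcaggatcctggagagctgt
Cnn1 upstream: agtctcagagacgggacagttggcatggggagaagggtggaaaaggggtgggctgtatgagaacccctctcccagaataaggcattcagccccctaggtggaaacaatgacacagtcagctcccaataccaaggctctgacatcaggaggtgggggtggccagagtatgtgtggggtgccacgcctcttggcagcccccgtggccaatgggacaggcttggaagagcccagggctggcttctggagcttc
Pln upstream: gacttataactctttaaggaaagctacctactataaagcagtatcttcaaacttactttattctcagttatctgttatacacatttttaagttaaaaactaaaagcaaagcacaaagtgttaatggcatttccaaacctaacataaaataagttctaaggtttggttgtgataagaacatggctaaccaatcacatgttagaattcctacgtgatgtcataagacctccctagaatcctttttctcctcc
None of these 3 windows held a CArG-like box. The muscle motif CATTCC (MCAT, either strand, not overlapping the CArG-like boxes of Acta2) was in the windows of Acta2, Mylk, Cald1 and Smtn, and in 12.6% of all windows. These matches describe letters in 1 window of each start and not bound sites.

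Across same-numbered experiments 9 of the 10 genes kept their sign. The called genes among them had to, because their eGFP and Hoxa9 arrays did not overlap. Actg2, Cnn1, Myh11, Mylk, Pln and Myocd were higher with Hoxa9 in 4 of 4, and Acta2, Tagln and Smtn were lower in 4 of 4. Over all genes 43.4% had the same sign in all 4, 19.1% higher and 24.3% lower. Cald1 alone was mixed. The experiments ran from 1.94 to 2.03 for Mylk and from 1.26 to 3.35 for Myocd. Hoxa9 replicate 3 was the highest Hoxa9 array for Acta2, Actg2, Tagln, Cnn1, Myh11 and Myocd.

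**Figure D2:**
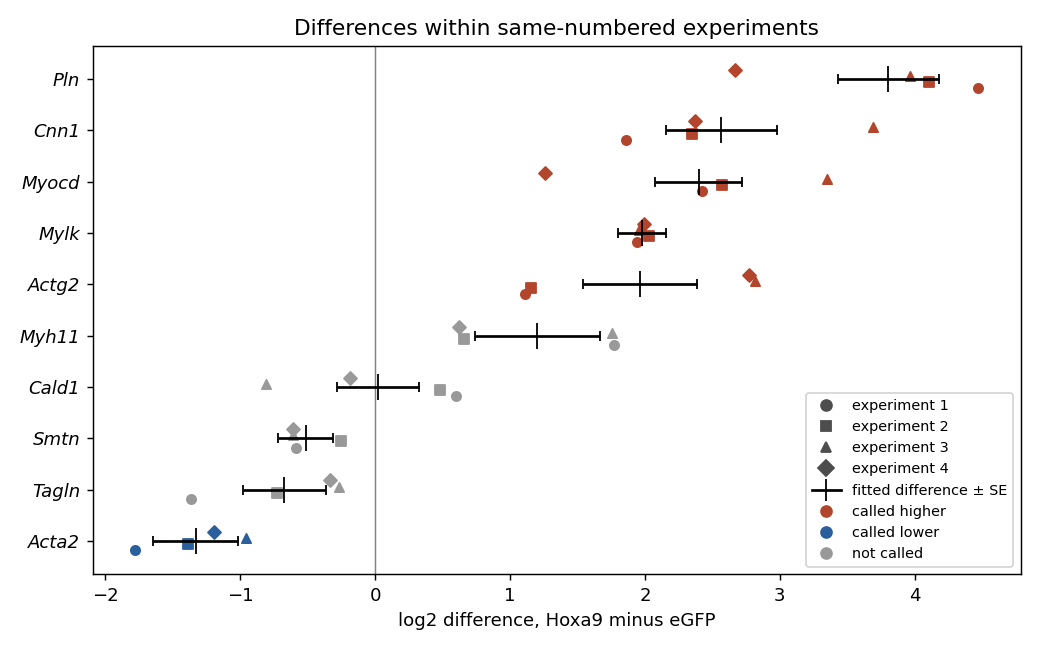
Log2 difference of Hoxa9 minus eGFP within each same-numbered experiment, for the 10 genes. Each point is 1 experiment. Mylk lies between 1.94 and 2.03, Acta2, Tagln and Smtn lie below 0 in all 4, and Cald1 lies on both sides of 0.

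Within slides the called genes kept their direction, as they had to because their eGFP and Hoxa9 arrays did not overlap. These differences rest on few arrays, and slide 3 held only eGFP replicate 4 and Hoxa9 replicate 3. Acta2 differed by -0.77, -2.13 and -0.84 on slides 1 to 3, Actg2 by 2.20, 0.96 and 3.56, Cnn1 by 2.10, 1.93 and 4.14, and Mylk by 2.38, 2.10 and 1.46. Pln differed by 4.31, 4.11 and 2.51 and Myocd by 2.26, 3.11 and 1.74. With the slide as a block all 6 were called, Acta2 with a limma adjusted p of 0.04848 and Pln on eGFP readings below background. Of the others, Tagln read -0.43, -1.49 and 0.28, Smtn 0.02, -0.88 and -0.77, Cald1 0.59, -0.78 and -0.26, and Myh11 1.87, 0.21 and 1.52.

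**Figure D3:**
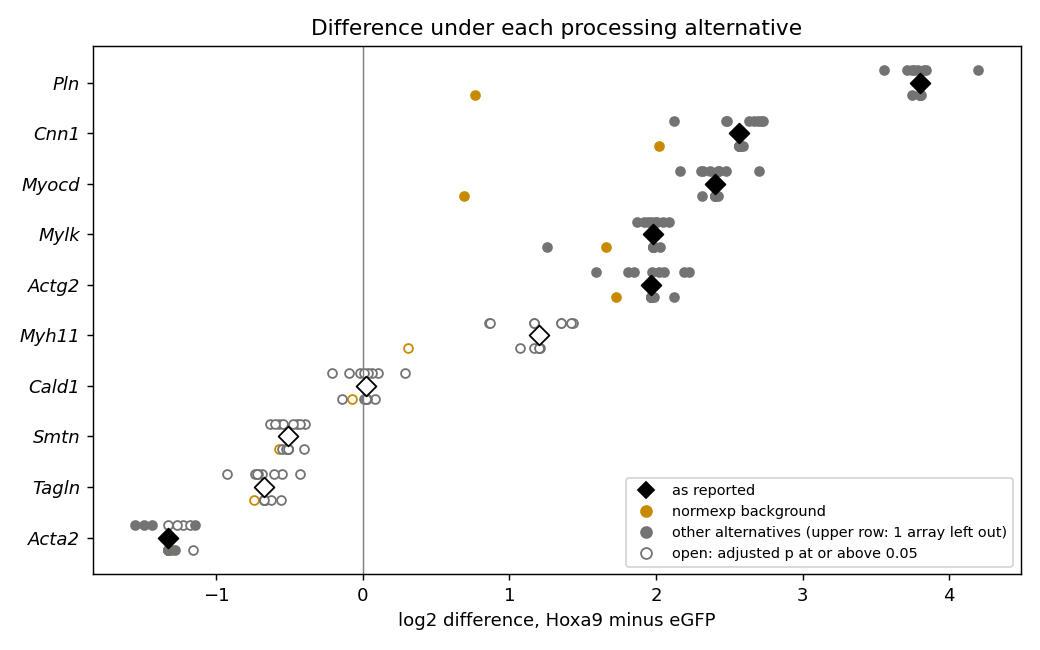
Log2 difference of each of the 10 genes under the main setting and under each alternative. The values of Pln and Myocd with normexp, 0.76 and 0.69, lie far below their other values, and Cald1 alone has values on both sides of 0.

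In pattern over the 8 arrays, each gene centred on its own mean, Tagln was nearest to Smtn within the set (root mean square distance 0.376) and to Acta2 next (0.414). Actg2 was nearest to Cnn1 (0.462) and Mylk to Myocd (0.444), while Acta2 and Pln were the farthest apart at 2.65. These distances hold the group difference as well as the spread within groups. Among 15764 genes compared, those near to Acta2 included Cotl1 (0.128), Nqo1 (0.157) and Filip1 (0.221). The nearest to Cnn1 were Ccdc81 and Eva1a (both 0.397), Nr0b1 (0.453) and Smoc2 (0.488). Those nearest to Tagln were Lrp8 (0.204), Pdgfra (0.221), Chst1 (0.226) and Sohlh2 (0.227), and to Myh11 they were Tgm2 (0.317), Cd40 (0.337), N4bp2 (0.356) and Smim6 (0.365).

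Wider contractile and cytoskeletal genes moved in both directions. Of 30 listed, 28 were measured, 7 rose and 2 fell (32.1% called, against 15.2% of all genes), with a median difference of 0.11. With the experiment as a block 6 were higher and 2 lower, 28.6% against 16.2% of all genes. Itga8, an integrin gene among the 7, was above background only in the Hoxa9 arrays and passed the filter through them. The rises included the intermediate filament gene Synm (1.88, SE 0.23), the LIM protein gene Fhl1 (2.13, SE 0.29) and the small heat shock protein gene Hspb6 (1.22, SE 0.23). Csrp2, a LIM protein of vascular smooth muscle, fell by 1.15 (SE 0.23). Lmod1 and Kcnmb1, a leiomodin and a potassium channel subunit typical of smooth muscle, were not well above background on any array. The tropomyosin genes Tpm1 and Tpm2 differed by 0.05 and 0.01 and the regulatory light chain gene Myl9 by -0.62, none of them called.

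SRF and its partners were called in both directions. Of 17 measured, 3 rose and 2 fell (29.4% called, against 15.2% of all genes), with a median of 0.03. Besides Myocd, Mrtfa, which encodes MRTF-A, rose by 0.71 (SE 0.18, limma adjusted p = 0.03254) and the deacetylase gene Hdac4 by 0.79 (SE 0.17). Prrx1, a mesenchymal homeobox gene, fell by 2.54 (SE 0.18) and Fhl2, a LIM-domain cofactor, by 0.83 (SE 0.19). Srf itself differed by -0.11 and Mrtfb by -0.13, neither called.

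Cytoskeletal targets of MRTF and SRF held 0 rises and 3 falls among 20 measured, 15.0% called, with a median of -0.35. Over all genes 15.2% were called and 7.45% were lower. The groups did not overlap with Hoxa9 below in 7 of the 20 and with Hoxa9 above in 1, against 12.6% and 10.9% of all genes. In 4 of 4 experiments 10 were lower and 2 higher, against 24.3% and 19.1% of all genes. The falls were Fhl2, Tagln2, a transgelin relative (0.73), and Zyx, a focal adhesion gene (0.85). With the experiment as a block 1 was higher and 4 lower, 25.0% against 16.2% of all genes. By limma, Vcl (vinculin) differed by 0.24 and Flna (filamin A) by -0.57, neither called.

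Genes that set the phosphorylation of myosin light chain held 2 rises and 2 falls among 23, 17.4% called and so near the 15.2% of all genes, with a median of -0.05. Ppp1r14a, which encodes the myosin phosphatase inhibitor CPI-17, rose by 1.97 (SE 0.21, limma adjusted p = 5.824e-04), and Prkg1, the cyclic GMP-dependent kinase, by 2.16 (SE 0.48). Pak1, a kinase that can act on Mylk, fell by 1.39 and Ppp1r14b, a relative of Ppp1r14a, by 0.52. Under the experiment block 2 were higher and 1 lower, 13.0% against 16.2%.

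Partners of phospholamban in the sarcoplasmic reticulum and in cyclic GMP signalling held 2 rises and 1 fall among 21 measured of 25 listed, 14.3% called and so near the 15.2% of all genes. Gucy1b1, a subunit of soluble guanylate cyclase, passed the filter only through the Hoxa9 arrays. With the floor used for Pln it was 4.78-fold higher in the main setting. Prkg1 rose as above, and the calcium/calmodulin kinase gene Camk2d fell by 1.74 (SE 0.16). Atp2a2, which encodes the calcium pump that phospholamban inhibits, differed by 0.21 (SE 0.28), and Sln, the pump inhibitor sarcolipin, by 1.43 (SE 0.78), neither called. With the experiment as a block 6 were higher and 2 lower, 38.1% against 16.2% of all genes.

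**Figure D4:**
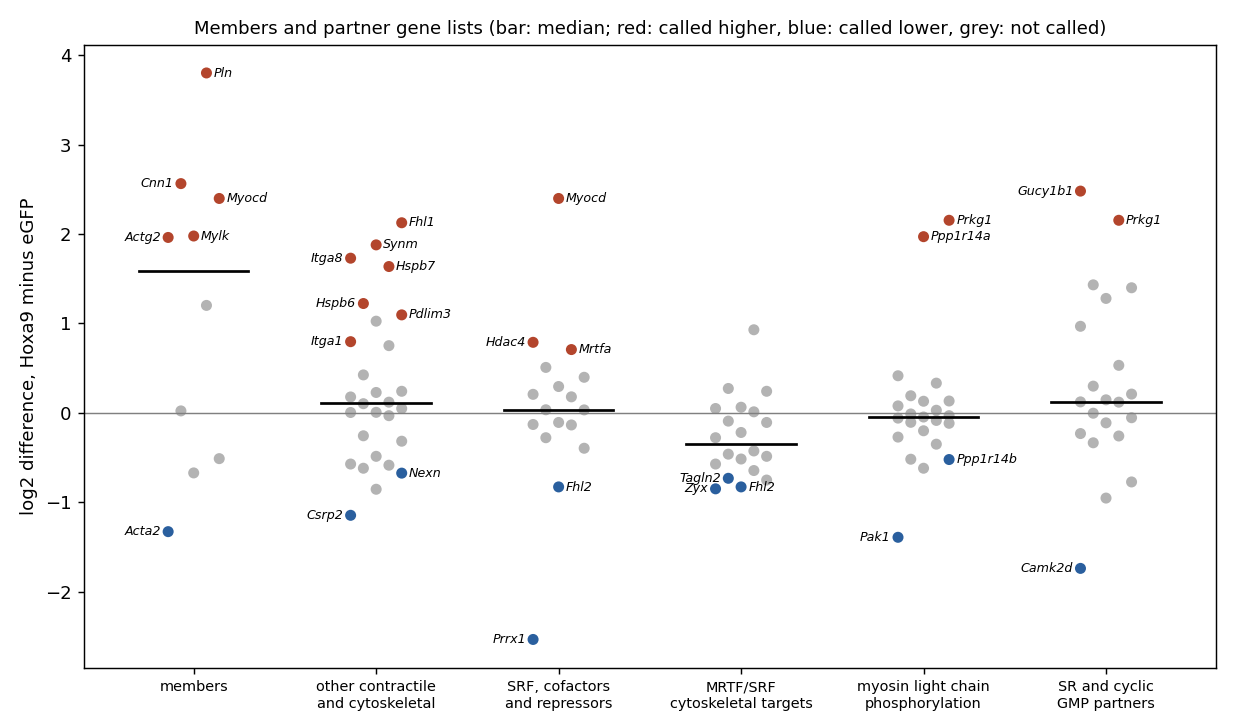
Log2 difference of Hoxa9 minus eGFP for the 10 genes and for 5 lists of partner genes. Points are genes, black bars are medians, and named points were called. The median is 1.58 for the 10 genes and between -0.35 and 0.12 for the lists.

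Markers of other cells that can express these genes were read on the same arrays, and their counts of 0 to 2 calls a list stand beside the 15.2% of all genes called. Summed levels here add the unlogged signals relative to the 75th percentile over a list. The genes of strongest signal weigh most in such a sum, which is not an amount of RNA or of cells. Over the 10 smooth muscle genes, where Acta2 had the strongest signal, the sums were 130.6, 102.5, 170.2 and 151.3 in the eGFP arrays. In the Hoxa9 arrays they were 53.3, 57.4, 105.1 and 84.4, lower in each experiment, although the median difference of the set was 1.58. Pericyte and mural cell markers held 0 rises and 1 fall among 7 measured of 8, Notch3 by 2.15 (SE 0.17), and Kcnj8 was not above background on any array. Their sum was 41.3 to 57.8 in the eGFP arrays and 34.8 to 40.1 in the Hoxa9 arrays. Mcam, which was not called (-0.01, SE 0.18), gave the strongest signal in it. Myofibroblast markers held 1 rise, the collagen gene Col12a1 (1.64), and 1 fall, the matrix gene Cthrc1 (1.36), among 8, with sums of 63.4 to 84.9 and 88.3 to 100.1. Fn1, which was not called (0.33, SE 0.15), gave the strongest signal in those sums. Fibroblast markers held 1 rise and 1 fall among 9 measured of 10: Ly6a, the gene of the surface protein Sca-1, rose by 4.55 (SE 0.48) and Col1a2 fell by 2.50 (SE 0.31). Their sums were 41.7 to 65.1 and 40.6 to 71.3, and Dpt was not above background on any array.

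The mean level of the fibroblast markers was 0.39, 0.29, 1.46 and 1.27 in the eGFP arrays and 0.25, 0.41, 1.86 and 1.53 in the Hoxa9 arrays. Replicates 3 and 4 were the higher in both groups, as they were for Acta2, Smtn and Myh11 and, among the Hoxa9 arrays, for Actg2 and Tagln. The pericyte and skeletal muscle differentiation lists shared this. The pericyte means were -0.40, -0.65, 0.23 and 0.47 in the eGFP arrays and -0.77, -0.60, -0.21 and -0.15 in the Hoxa9 arrays. The differentiation means were 3.46, 3.31, 4.39 and 4.69 in the eGFP arrays and 4.14, 4.16, 5.05 and 5.36 in the Hoxa9 arrays. The mean of the myofibroblast markers was -1.12, -1.26, -0.53 and -0.46 in the eGFP arrays and -0.69, -0.73, -0.10 and -0.14 in the Hoxa9 arrays, again highest in replicates 3 and 4. The part of such cells in those results was not tested. In experiments 1 to 4 Actg2 differed by 1.11, 1.16, 2.81 and 2.77 and Acta2 by -1.78, -1.38, -0.96 and -1.20. Mylk differed by 1.94, 2.03, 1.96 and 1.99, Pln by 4.47, 4.11, 3.97 and 2.67, and Myocd by 2.42, 2.57, 3.35 and 1.26. The genes of the set did not share 1 order over the experiments, and a link to the marker means was not tested. Endothelial markers held 1 rise and 1 fall among 6 measured of 8, with sums of 14.4 to 19.9 and 15.6 to 21.4. With the experiment as a block the fibroblast list held 2 higher and 2 lower (44.4%), the myofibroblast list 2 and 0 (25.0%), and the endothelial list 0 and 1 (16.7%). Over all genes this block called 16.2%. Haematopoietic and Schwann cell markers held no call among 4 and 3 measured. Ptprc, which marks leukocytes, was above background on 2 of the 8 arrays.

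Markers of the cultured cells themselves moved too. Satellite cell and myoblast markers held 0 rises and 5 falls among 9 measured of 10 (55.6% called, where 7.45% of all genes were lower), including Vcam1 by 2.59 (SE 0.19), Pax7 by 1.31, Myf5 by 1.62 and the integrin gene Itga7 by 0.77. Under the experiment block 4 were lower (44.4%, where 7.86% of all genes were lower). Their sums were 249 to 347 in the eGFP arrays and 157 to 184 in the Hoxa9 arrays. Skeletal muscle differentiation genes held 5 rises and 0 falls among 24, including the fast myosin genes Myh2 (3.14) and Myh4 (3.48), with sums of 781 to 1901 and 974 to 2285. This was 20.8% called, where 15.2% of all genes were called and 7.71% were higher. With the experiment as a block 9 were higher and 4 lower (54.2% against 16.2% of all genes). The list moved in both directions: 13 of the 24 were higher and 6 lower in 4 of 4 experiments. Over all genes 19.1% were higher and 24.3% lower in 4 of 4. The part of these marker lists in the results on smooth muscle genes was not tested.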

How the data were processed

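RNA of the 8 samples was read on 1-colour Agilent mouse arrays. The intensity values are scanner output made by the authors with Agilent Feature Extraction 10.7.3.1, per the file headers, a program that subtracted background without scaling between arrays. A deposited table of processed values, treated as a score because 86.1% to 87.3% of its cells lack the decimal point, served as an alternative. With the point restored, its values lie within 0.05 of log2 scanner values plus a constant per array, with column medians from -3.36 to -2.95.

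Control spots and spots marked as outliers were left out (180 of 55681 probes lost), repeated spots averaged, and the 75th percentile (514 to 779 signal units over spots) subtracted on the log2 scale. Probes well above background on at least 4 arrays were kept (40771), and the brightest probe stood for each of 27005 genes. The comparison used limma 3.58.1 under R 4.3.3 (two-sided, group as the only term), after a test on simulated data. Samples of the same experiment number deviated together (r = 0.143, 0.228, 0.129 and 0.185, each over the limit of 0.1). So did 2 unlike-numbered pairs, eGFP 4 with Hoxa9 3 (0.188) and eGFP 3 with Hoxa9 4 (0.137). These values therefore do not single out the number. It was still taken as a pairing and served as a block in 1 of the alternatives. Of the array's probes, 31378 matched the RefSeq gene table and 2032 were renamed. Named genes are the set itself, up to 4 called genes of lowest adjusted p from each list, the other actins, and the 4 nearest in pattern to Acta2, Tagln, Cnn1 and Myh11, of which 1 is not reported here. Mrtfa, Srf, Mrtfb, Myod1, Tpm1, Tpm2, Myl9, Vcl, Flna, Atp2a2, Sln, Fn1 and Mcam were added as examples after their values were seen. The set and the lists were chosen with earlier results of these data known.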

Additional observations from a re-analysis of the deposited data

Results flagged for a closer look

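Cnn1 in Hoxa9 replicate 3 lay far from the other Hoxa9 arrays. Its level was 1.15, where the other 3 read -0.66 to -0.56, so that its gap to the nearest took 0.949 of the group's range, past Dixon's critical value for 4 samples. It was the only such value among 122 groups of 61 named genes tested, where chance gives about 1 in 20. Without that array the Cnn1 difference was 2.12 and still called.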

How the results depend on the processing

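The 10 genes were refitted under 17 alternatives. By gene, Actg2, Cnn1 and Mylk stayed called in all 17, Myocd in all 16 that measured it, and Tagln, Cald1 and Smtn were called in none. Pln was also called in all 16 that measured it. Those Pln calls rest on eGFP readings below background and, where the filter was used, on a gene that had to differ to pass it. They are therefore no support for the Pln call. Quantile normalization left 0 genes and 0 probes of the set called lower, and leaving out 1 array gave 0 to 1 of each. With probes required above background on all 8 arrays, 3 genes and 3 probes were called higher, because Pln, Myocd and Myh11 were not tested. Adjusted over probes, Actg2 lost its call without eGFP replicate 2 (0.05058), eGFP replicate 4 (0.05183) or Hoxa9 replicate 4 (0.05208, limma), which left 4 probes higher. By probe, 2 were lower with the replicate block, 0 with the slide block and 2 with an intensity trend and robust prior. Acta2 ranged from -1.55 to -1.15, and quantile normalization gave -1.16. Cald1 turned to -0.074 with normexp and -0.14 with the slide block, and ranged from -0.21 to 0.29 when 1 array was left out, with -0.09 without eGFP replicate 2 and -0.02 without Hoxa9 replicate 2; the cause was not tested. The replicate block called Myh11 (1.20) and 1 Smtn probe and changed no other call of the set. The median of the 10 genes fell to 0.50 with normexp and ranged from 1.23 to 1.71 when 1 array was left out. Over all genes, leaving out 1 array gave 1302 (without eGFP replicate 2) to 1879 lower calls, and the median of all genes stayed between -0.09 and -0.03. The dim Pln, Myocd and Myh11 probes limit the size of those differences.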
